A study of Mus musculus with 6 samples.

Results

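The Emx and pallial lineage transcription factors are 9 genes chosen by name: Emx1, Emx2, Lhx2, Pax6, Eomes, Neurog1, Neurog2, Neurod2 and Neurod6. Of these, 8 were read from the rows that carry their symbols in the tables of all 6 mice, among 22651 genes in each table, and Emx2 is not analysed here. Of the 8, 7 were among the 13969 genes kept by the low-count filter of edgeR, and Neurog1 is given by its counts alone. The tissue was the telencephalon at postnatal day 0. The 3 wild-type (WT) mice were TSC1 flox/flox;Emx1 +/+, and the 3 Tsc1/Emx1-Cre (TSC1) mice were TSC1 flox/flox;Emx1-cre/+. All 6 mice therefore carried floxed Tsc1 alleles, the WT mice were littermates with no Cre, and the allele at the Emx1 locus was the only labelled difference. The Emx1-driven Cre acts in the embryonic dorsal cortex, so Tsc1 was to be deleted there, and cells of other origins in the same tissue keep it. No mouse carried Cre with an intact Tsc1 gene, so an effect of the Cre allele and an effect of Tsc1 loss cannot be told apart.

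The pallium, the dorsal telencephalon, gives rise to the cerebral cortex and the hippocampus. Its dividing radial glia express the homeodomain factors Emx1, Emx2, Lhx2 and Pax6, which take part in dorsal patterning. In bulk tissue the RNA of these factors cannot be assigned to radial glia alone. The proneural factors Neurog1 and Neurog2 start glutamatergic neurogenesis, Eomes (also called Tbr2) marks the intermediate progenitors that follow, and Neurod2 and Neurod6 come on in the young cortical neurons. In the Emx1-Cre strain, Cre was placed behind the coding sequence of Emx1 with an internal ribosome entry site, so that the targeted allele was designed to keep making Emx1 protein. The level of Cre itself was not analysed here.

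Values of single mice are given in the order of replicates 1, 2 and 3 throughout. Total expected counts, the reads that the quantification program assigned to genes, were between 14119365 and 17772865 per mouse, and 3 counts corresponded to between 0.169 and 0.212 CPM, counts scaled to the library total. Tsc1, whose count covers the whole gene and not only the deleted part, was at 50.2, 32.0 and 28.4 TPM (transcript abundance per length and library total) in WT and at 27.1, 21.7 and 22.4 TPM in TSC1. All TSC1 mice lay below all WT mice, and the log2 fold change was -0.66 (standard error 0.19), which did not pass the test (edgeR adjusted p = 0.133). Tsc1 did pass by DESeq2 (-0.65, adjusted p = 0.00328), with the replicate block (-0.63, edgeR adjusted p = 0.0195) and without WT replicate 1, the highest WT mouse (-0.40, edgeR adjusted p = 0.0477). TSC1 replicate 3 stood apart from the other TSC1 mice. On the first principal component, which held 47.7% of the variance, it lay at -3.95, against 26.5 and 30.3 for TSC1 replicates 1 and 2 and between -26.3 and -7.43 for WT. In the Y-linked gene Ddx3y, replicate 3 of WT was at 64.3 TPM and replicate 3 of TSC1 at 61.97 TPM, and the other 4 mice were listed at 0. Xist, which is made in females, was at 0.48 TPM in WT replicate 3 and at 0.66 TPM in TSC1 replicate 3. In the other 4 mice Xist was between 442 and 509.9 TPM. By these genes replicate 3 was the male of each group, and the part of sex in the values was not tested. As the tissue is bulk, fewer cells of a type and less RNA per cell cannot be told apart.

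No pallial factor passed the test. Of the 7 members tested, 0 had an adjusted p below 0.05 in edgeR's quasi-likelihood test, against 1.75% of all genes tested. DESeq2 also called 0, against 4.73% of all genes, and so did edgeR with the replicate number as a block, against 4.14%. At an unadjusted p below 0.05, 1 member (Lhx2) was counted, against 17.8% of all genes (9.03% higher and 8.79% lower in TSC1). Lhx2 was also the only member whose TSC1 and WT values did not overlap, and 22.7% of all genes had groups that did not overlap (12.3% higher and 10.3% lower in TSC1). Lhx2, Neurog2, Eomes, Neurod2 and Neurod6 had positive log2 fold changes and Emx1 and Pax6 negative ones. Upper-quartile normalization turned the sign of Neurod2. The median log2 fold change of the 7 members was 0.20 and that of all genes tested was -0.0027.

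**Figure D1:**
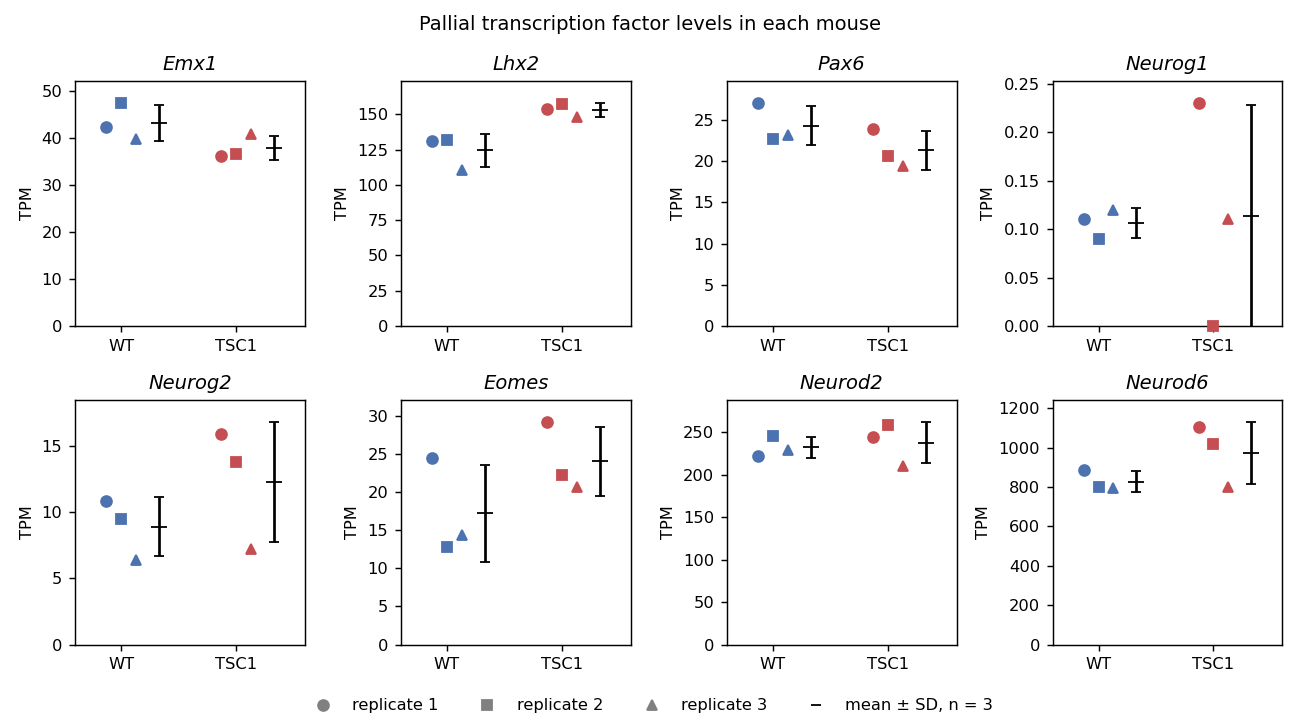
TPM (vertical axes, each from 0) of the 8 members in each WT (blue) and TSC1 (red) mouse, with a symbol for each replicate number, and the mean ± SD of 3 mice in black. In Lhx2 all TSC1 mice lie above all WT mice, and in the other members the groups overlap. The SD bar of Neurog1 in TSC1 is cut at 0.

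By TPM, which is corrected for transcript length, Neurod6 had the highest level in WT, followed by Neurod2, Lhx2, Emx1, Pax6, Eomes, Neurog2 and Neurog1. Only the neighbours Pax6, at 22.7 to 27.0 TPM, and Eomes, at 12.8 to 24.6 TPM, overlapped. In TSC1 the mean of Eomes lay above that of Pax6, and these were again the only neighbours that overlapped, with Eomes at 20.8 to 29.3 TPM and Pax6 at 19.4 to 23.9 TPM. The neuronal factors were thus the highest of the members in both groups and the proneural factors the lowest.

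Among the dorsal patterning factors, Emx1 lies on chromosome 6 (GRCm38, the assembly of mm10, 85187438 to 85204462, plus strand). The tables use 1 transcript model of 1173 bases for it. The matching transcript in GENCODE has 3 exons and 1561 bases, of which 771 are coding. Emx1 was at 42.5, 47.4 and 39.8 TPM in WT and at 36.2, 36.7 and 40.8 TPM in TSC1, from 210 to 352 expected counts per mouse. TSC1 replicates 1 and 2 were below all WT mice, and TSC1 replicate 3 lay between WT replicates 3 and 1. Group means were 43.2 ± 3.86 TPM for WT against 37.9 ± 2.53 TPM for TSC1 (SD, n = 3 each). The log2 fold change was -0.22 (standard error 0.12, 95% interval -0.49 to 0.037, edgeR adjusted p = 0.355), so the interval runs from a ratio of 0.714 to one of 1.03. Every mouse held Emx1 RNA far above the limit of 3 counts.

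Lhx2, a LIM homeodomain factor that sets cortical identity against the hem and the antihem, lies on chromosome 2 (GRCm38, 38339281 to 38369733, plus strand). It was at 130.8, 131.9 and 110.7 TPM in WT and at 154, 157.3 and 147.9 TPM in TSC1. Every TSC1 mouse lay above every WT mouse, which 12.3% of all genes tested did. Group means were 124.4 ± 11.95 TPM for WT against 153 ± 4.80 TPM for TSC1 (SD, n = 3 each). TSC1 against WT stood at 0.27 on the log2 scale (standard error 0.076, 95% interval 0.10 to 0.44), a ratio of 1.21, with an unadjusted edgeR p of 0.00528 and an adjusted p of 0.105. The annotated genes Gm27197 and Gm13584 overlap Lhx2 on the other strand, and any reads they share with Lhx2 cannot be told apart here. The edgeR adjusted p of Lhx2, or that of another tool, stayed between 0.0519 and 0.338 over the 15 alternatives, and none of them called it.

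Emx1 and Lhx2, both dorsal patterning factors, had fold changes of opposite sign, neither of which passed the test. Their ratio within a mouse does not depend on how libraries are scaled. Emx1 over Lhx2 in TPM was 0.325, 0.36 and 0.36 in WT and 0.235, 0.233 and 0.276 in TSC1. The TSC1 mice lay below the WT mice without overlap. This ratio was chosen after the values of both genes had been seen and was not tested. The Cre allele of the TSC1 mice lies at the Emx1 locus, and its part in the ratio was not tested either.

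Pax6, a paired-box factor of radial glia, lies on chromosome 2 (GRCm38, 105668900 to 105697364, plus strand). It was at 27.0, 22.7 and 23.2 TPM in WT and at 23.9, 20.6 and 19.4 TPM in TSC1. TSC1 replicate 1 was above WT replicates 2 and 3, so the groups overlapped. TSC1 against WT was at -0.20 on the log2 scale (standard error 0.10, 95% interval -0.43 to 0.032, edgeR adjusted p = 0.351). The tables divide Pax6 among 5 transcript models, and their length weighted by model share was 2711 ± 8.93 bases for WT against 2743 ± 38.5 bases for TSC1 (SD, n = 3 each). The lengths overlapped as well (exact two-sided permutation test, p = 0.3, where 0.1 is the smallest that 3 mice against 3 allow). The antisense gene Pax6os1 overlaps Pax6, and the library kit does not keep the strand, so reads of the overlap cannot be told apart.

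Among the proneural factors, Neurog2 lies on chromosome 3 (GRCm38, 127633135 to 127635631, plus strand). It was at 10.8, 9.51 and 6.42 TPM in WT and at 15.9, 13.8 and 7.19 TPM in TSC1, from 74 to 185 expected counts. Replicate 3 was the lowest mouse of each group, and TSC1 replicate 3 lay below WT replicates 1 and 2. The log2 fold change of 0.42 (standard error 0.29, 95% interval -0.23 to 1.08, edgeR adjusted p = 0.477) had the widest interval of the 7 members. Leaving out TSC1 replicate 3 moved it to 0.69 (edgeR adjusted p = 0.0643), and leaving out TSC1 replicate 1 moved it to 0.22 (edgeR adjusted p = 0.818).

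Neurog1, its paralog on chromosome 13 (GRCm38, 56250478 to 56252163, minus strand), was barely counted. It had 1 expected count in each WT mouse and 2, 0 and 1 in TSC1 replicates 1, 2 and 3. All values lie under the 3 counts taken as the limit of detection, so a difference was not detectable at this depth, and no fold is given.

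Eomes, a T-box factor of intermediate progenitors, lies on chromosome 9 (GRCm38, 118478212 to 118486132, plus strand). It was at 24.6, 12.8 and 14.5 TPM in WT and at 29.3, 22.3 and 20.8 TPM in TSC1, from 280 to 576 expected counts. WT replicate 1 lay above TSC1 replicates 2 and 3, and the other 2 WT mice lay below every TSC1 mouse. On the log2 scale the difference was 0.46 (standard error 0.23, 95% interval -0.077 to 0.9996, edgeR adjusted p = 0.352). Without WT replicate 1 it was 0.78 and passed the test (edgeR adjusted p = 0.0243), in a fit that called 4.81% of all genes. Without WT replicate 2 it was 0.29 (edgeR adjusted p = 0.678). The tables hold 2 transcript models of Eomes, whose weighted length was 3702 ± 13.1 bases for WT against 3708 ± 6.04 bases for TSC1 (SD, n = 3 each; exact two-sided permutation test, p = 0.6). The annotated antisense gene Gm33460 overlaps Eomes, so its reads could be counted there too.

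The levels of factors of successive stages were also compared within each mouse. As the tissue is bulk, such ratios of RNA do not give the ratios of the cells. Eomes over Pax6, a factor of intermediate progenitors against a factor of radial glia, was 0.909, 0.563 and 0.624 in WT. In TSC1 it was 1.22, 1.08 and 1.07, above every WT mouse. Group means were 0.698 ± 0.185 for WT against 1.12 ± 0.0862 for TSC1 (SD, n = 3 each), a ratio of 1.61 (exact two-sided permutation test, p = 0.1, the smallest possible here). With a replicate left out in turn, that ratio of means lay between 1.47 and 1.90, the highest without WT replicate 1.

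Neurog2 over Pax6 was 0.40, 0.419 and 0.277 in WT and 0.664, 0.669 and 0.371 in TSC1. TSC1 replicate 3 fell among the WT mice (exact two-sided permutation test, p = 0.3). Neurod6 over Neurod2 was 4.01, 3.27 and 3.46 in WT and 4.51, 3.95 and 3.79 in TSC1. WT replicate 1 lay above TSC1 replicates 2 and 3, so these groups overlapped too (exact two-sided permutation test, p = 0.3).

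**Figure D2:**
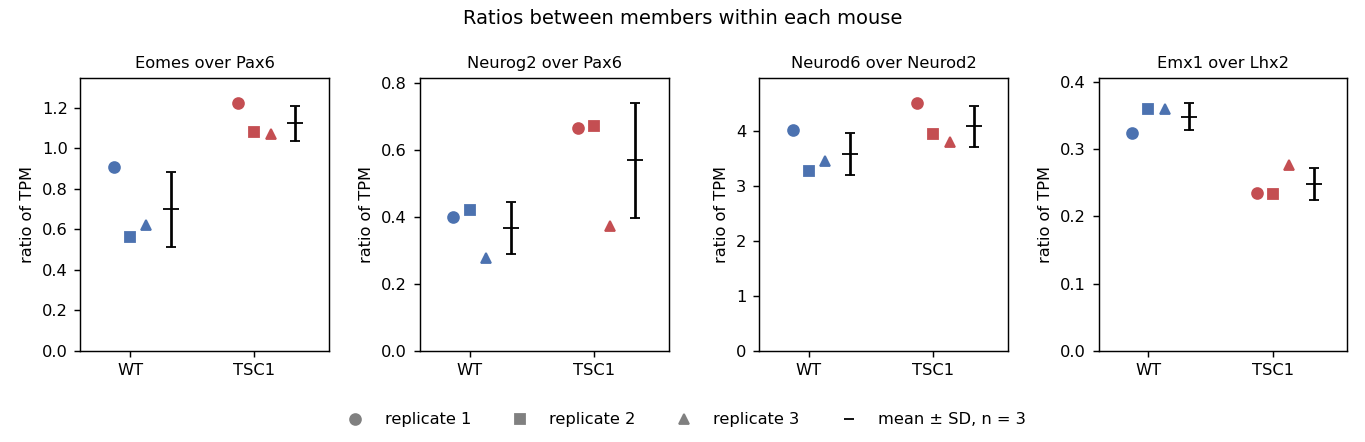
Ratios of TPM between pairs of members (vertical axes, from 0) in each WT (blue) and TSC1 (red) mouse, with the mean ± SD of 3 mice in black. Eomes over Pax6 and Emx1 over Lhx2 separate the groups, in opposite directions, and the other ratios overlap. Emx1 over Lhx2 was chosen after the values had been seen. How often ratios of other gene pairs separate the groups was not counted.

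The neuronal factor Neurod2 lies on chromosome 11 (GRCm38, 98325415 to 98329648, minus strand). It was at 221.4, 245.2 and 229.1 TPM in WT and at 244.7, 257.8 and 210.3 TPM in TSC1, where the TSC1 mice included both the highest and the lowest value. On the log2 scale the difference was 0.0047 (standard error 0.085, 95% interval -0.18 to 0.19, edgeR adjusted p = 0.985), and its sign turned with the normalization.

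Neurod6, also called Nex, lies on chromosome 6 (GRCm38, 55677822 to 55681263, minus strand). With 8880 to 12468 expected counts it was the most deeply counted member. It was at 888.6, 801 and 793.3 TPM in WT and at 1102.8, 1019 and 797.3 TPM in TSC1. TSC1 replicates 1 and 2 were above all WT mice, and TSC1 replicate 3 was level with the lower WT mice. The log2 fold change was 0.20 (standard error 0.10, 95% interval -0.024 to 0.43, edgeR adjusted p = 0.334). Without TSC1 replicate 3 it was 0.32 and passed the test (edgeR adjusted p = 0.0301), in a fit that called 6.29% of all genes. Without TSC1 replicate 1 it was 0.12 (edgeR adjusted p = 0.679).

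Eomes and Neurod6 were thus the members whose call turned on 1 mouse. The DNA just before their start sites is shown as the site from which these RNAs are read. The 250 bases before the RefSeq start are at chr9:118477939-118478188 on the plus strand for Eomes and at chr6:55681264-55681513 on the minus strand for Neurod6 (GRCm38.p6, printed 5′ to 3′). Capitals mark E-boxes (CANNTG, which reads the same on both strands), the motif bound by basic helix-loop-helix factors such as the Neurog and Neurod proteins.
Eomes: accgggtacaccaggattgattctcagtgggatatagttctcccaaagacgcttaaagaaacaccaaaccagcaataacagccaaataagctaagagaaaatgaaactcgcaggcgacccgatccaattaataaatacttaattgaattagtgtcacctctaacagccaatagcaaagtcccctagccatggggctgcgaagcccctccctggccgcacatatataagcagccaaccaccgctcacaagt
Neurod6: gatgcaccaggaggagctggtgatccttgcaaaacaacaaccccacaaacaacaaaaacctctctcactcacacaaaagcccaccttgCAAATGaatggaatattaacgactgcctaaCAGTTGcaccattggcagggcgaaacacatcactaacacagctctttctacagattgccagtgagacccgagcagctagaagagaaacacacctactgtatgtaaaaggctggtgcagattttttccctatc

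Neurod6 has 2 E-boxes in this window and Eomes 0. Of 32851 such windows over all genes, 66.2% hold at least 1 E-box, so a match is common.

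Other genes expressed in the pallial lineage, not all of them particular to it, were followed from 3 lists, of which 47 genes were tested. Among them 2 were lower in TSC1 at an edgeR adjusted p below 0.05 and 0 were higher, against 0.766% lower and 0.981% higher of all genes. Both were in the list of progenitor and radial glia genes. Sox2, which maintains neural progenitors, was at 80.8, 75.3 and 80.0 TPM in WT and at 58.1, 55.1 and 60.7 TPM in TSC1, with no overlap. It fell by 0.47 (log2, standard error 0.079, edgeR adjusted p = 0.0239). Id4, an inhibitor of basic helix-loop-helix factors, was at 96.8, 88.9 and 97.3 TPM in WT and at 63.8, 63.6 and 74.1 TPM in TSC1. It fell by 0.52 (log2, standard error 0.096, edgeR adjusted p = 0.0327). Both genes are known to be expressed in subpallial progenitors as well. Both calls were lost, with edgeR adjusted p between 0.102 and 0.164, when WT replicate 2, WT replicate 3, TSC1 replicate 1 or TSC1 replicate 2 was left out. Those fits called between 0.248% and 0.318% of all genes. In them the log2 fold change of Sox2 lay between -0.50 and -0.44 and that of Id4 between -0.56 and -0.47.

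Of the 19 progenitor and radial glia genes tested, 14 had negative and 5 positive log2 fold changes, with a median of -0.13. At an unadjusted edgeR p below 0.05, 4 were lower and 0 higher, against 8.79% and 9.03% of all genes. As the list is not limited to genes particular to the pallium, these counts are no measure of pallial progenitors. Sp8 had the largest change among those not called, -0.75 (standard error 0.32, edgeR adjusted p = 0.278). Of the 15 genes of neurogenic commitment, 8 were positive and 7 negative, with a median of 0.015 and 0 calls. Nhlh1, a neuronal helix-loop-helix gene, had the largest value, 0.55 (standard error 0.30, edgeR adjusted p = 0.368). Neurod1, which follows Eomes in the same cells, was at 53.5 ± 16.2 TPM for WT against 55.0 ± 9.02 TPM for TSC1 (SD, n = 3 each).

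Of the 14 pallial neuron genes, 13 had positive log2 fold changes, against 49.3% of all genes, with a median of 0.22, and 0 were called. At an unadjusted edgeR p below 0.05, 5 were higher and 0 lower, against 9.03% and 8.79% of all genes. The list was chosen with earlier results of these data known. In 3 of the 14, named here after their values were seen, every TSC1 mouse lay above every WT mouse, as in 12.3% of all genes: Bhlhe22 at 0.47 (edgeR adjusted p = 0.121), Zbtb18 at 0.23 (edgeR adjusted p = 0.134) and the vesicular glutamate transporter gene Slc17a7 at 0.25 (edgeR adjusted p = 0.193). DESeq2 called Bhlhe22, Sox2 and Id4. Tbr1, the T-box factor that follows Eomes in early neurons, stood at -0.014 (log2, standard error 0.085, edgeR adjusted p = 0.952).

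**Figure D3:**
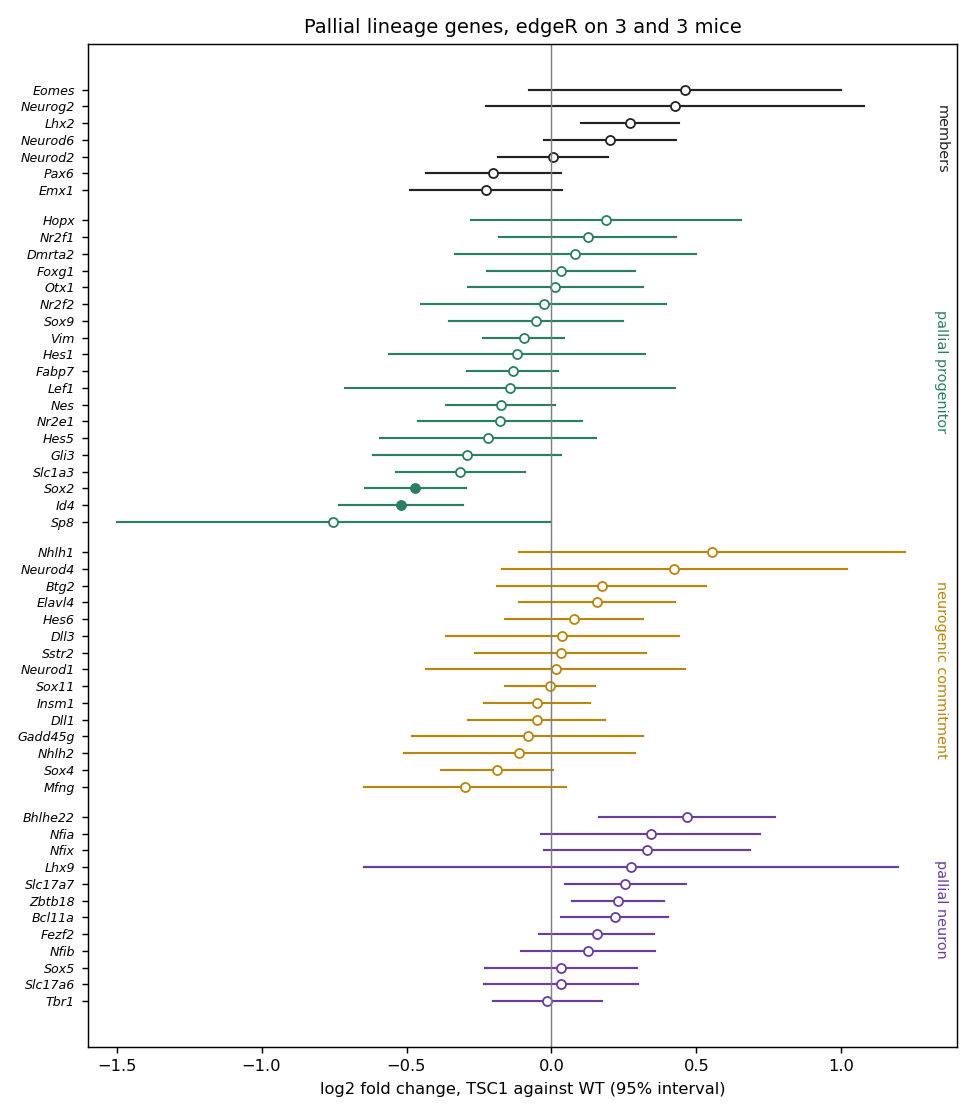
edgeR log2 fold change of TSC1 against WT (horizontal axis) with its 95% interval for the 7 members tested and for the genes of the 3 pallial lists that are reported. Filled points have an adjusted p below 0.05, and only Sox2 and Id4 are filled. Neurod1 belongs to 2 lists and is drawn once.

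Markers of the subpallium, the ventral telencephalon that forms the striatum and the cortical interneurons, moved with the groups. Of 22 subpallial genes, 21 had negative log2 fold changes, with a median of -1.14. Dlx1, Lhx6 and Gad2 passed the test, at -0.68 (edgeR adjusted p = 0.0125), -0.54 (edgeR adjusted p = 0.0153) and -1.03 (edgeR adjusted p = 0.0485). Thus 3 of the 22 were called lower, against 0.766% of all genes. At an unadjusted edgeR p below 0.05, 13 of the 22 were lower, against 8.79% of all genes. In 16 of the 22 every TSC1 mouse lay below every WT mouse, against 10.3% of all genes. The summed level of the list was 806.4, 808.7 and 933.2 TPM in WT and 443.6, 439 and 618 TPM in TSC1, with no gene of the list at 0 in all mice. The 5 choroid plexus genes, led by Ttr, summed to 1685, 1166 and 2451 TPM in WT and to 30.9, 107.7 and 859.9 TPM in TSC1.

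TSC1 replicate 3, which had the highest subpallial and choroid plexus sums of the TSC1 mice, had the lowest Neurod6, Neurod2, Neurog2, Eomes, Lhx2 and Pax6 and the highest Emx1 of them. The 8 members together, most of which is Neurod6, were at 1346, 1271 and 1217 TPM in WT and at 1607, 1528 and 1244 TPM in TSC1. Divided by the subpallial sum, they were at 1.67, 1.57 and 1.30 in WT and at 3.62, 3.48 and 2.01 in TSC1 (exact two-sided permutation test, p = 0.1, the smallest possible). The subpallial list was chosen with earlier results of these data known, and the members' own sums overlapped. The separation of this ratio is therefore no test of the members. The part of these tissue markers in the members' values was not tested.

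**Figure D4:**
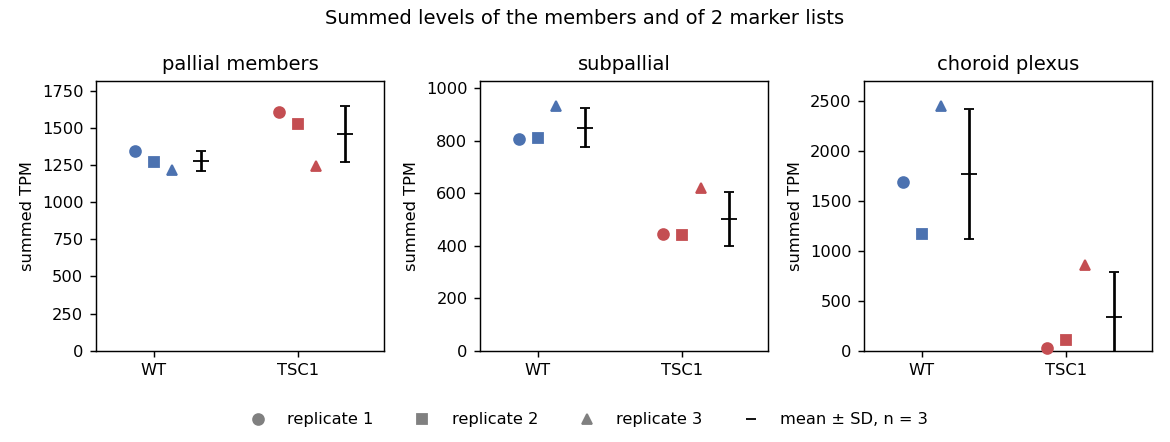
Summed TPM (vertical axes, from 0) of the 8 pallial members, of 22 subpallial genes and of 5 choroid plexus genes in each WT (blue) and TSC1 (red) mouse, with the mean ± SD of 3 mice in black. Both marker sums are lower in every TSC1 mouse than in any WT mouse, and TSC1 replicate 3 is the nearest to WT in each. The SD bar of the choroid plexus sum in TSC1 is cut at 0.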

How the data were processed

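Polyadenylated RNA libraries of 3 WT and 3 TSC1 telencephalons were compared, with groups and replicate numbers from the sample titles. Per the authors' methods, trimmed read pairs were placed on mm10 by MapSplice2, and RSEM 1.2.12 then assigned them to transcript models. The deposited expected counts are RSEM's estimated reads per gene with no normalization. TPM and FPKM were computed by the authors with RSEM from counts and effective lengths. Here expected counts were rounded and tested with edgeR 4.0.16 in R 4.3.3 (TMM, filterByExpr, robust quasi-likelihood fit without a block, Benjamini-Hochberg over 13969 genes, threshold 0.05). Alternatives were RLE and upper-quartile scaling, DESeq2 1.42.0, limma 3.58.1 on log2(TPM + 1) of genes at 1 TPM or more in 3 samples, no filter, at least 10 counts in every sample, effective-length offsets, a replicate block and left-out mice. Single values were compared with exact permutation tests. Members and lists were chosen with earlier results of these data known. Text names all members, every called gene of the pallial lists and the largest change not called in each, except that 1 list gene is counted but not reported here. A planned share of Emx1 in Emx1 plus Emx2 was not run. The labels name no litter or day for a replicate number, so mice were not paired. Effective lengths are model lengths less 45.8 to 49.7 bases in WT and 55.1 to 57.6 bases in TSC1, which separates the groups and enters TPM. On simulated data of 13969 genes for this comparison, edgeR recovered 60% of genes changed by 0.5 and 100% of those changed by 1.5 (log2). Of its calls, 5.88% were false. The simulation gave every gene the same spread between mice, set slightly below the common spread that edgeR estimated from the real data. It changed only genes with higher counts and held no mouse set apart as TSC1 replicate 3 is. These shares need not hold for the members, whose standard errors ranged from 0.076 (Lhx2) to 0.29 (Neurog2).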

Additional observations from a re-analysis of the deposited data

How the results depend on the processing

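Over 15 alternatives, Emx1 and Pax6 kept a negative and Lhx2, Neurog2, Eomes and Neurod6 a positive log2 fold change, and Emx1, Lhx2, Pax6, Neurog2 and Neurod2 were called by none. The log2 fold change of Emx1 lay between -0.33 and -0.15. Neurod2 turned to -0.028 with upper-quartile scaling and lay between -0.065 and 0.076 with a mouse left out. With a mouse left out, Eomes lay between 0.29 and 0.78 and Neurod6 between 0.12 and 0.32, and 0 or 1 member was called. Of all genes, 244 were called in the main test, 640 by DESeq2, 371 without a filter, 579 with the replicate block and 485 without replicate 3 of both groups. Leaving out WT replicates 1, 2 and 3 gave 677, 35 and 35 calls, and TSC1 replicates 1, 2 and 3 gave 37, 45 and 885. Of the other pallial genes, 2 were called, against 4 by DESeq2, 5 with the block, 4 without replicate 3 of both groups and 0 to 6 with a mouse left out, 6 of them without TSC1 replicate 3. The cause was not tested. TSC1 over WT lay between 1.47 and 1.90 for Eomes over Pax6, 1.39 and 1.82 for Neurog2 over Pax6 and 1.81 and 2.34 for members over subpallial genes (1.74 with expected counts). With the replicate block, 0 members were called and Lhx2 had an edgeR adjusted p of 0.0519 and Eomes of 0.0581. Deviations of the same number correlated across genes at 0.267, -0.133 and 0.318, so the numbers were not taken as pairs, and not every mouse correlated best with its own number. Neurog1 lay under the depth limit.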

Other observations

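Over the 6 mice, the genes whose level on the log2 CPM scale, centred per gene, ran closest to that of Emx1 were Zfand1, Zyx and Tpm1. Their root mean square differences from Emx1 were 0.0219, 0.0334 and 0.0369, while Emx1 itself spanned 0.46 on that scale. Of 13962 genes compared, 637 came within 0.1, so a profile of this kind was common.

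The other marker lists were read in the same fit. Cajal-Retzius genes, 7 in number, had a median log2 fold change of -0.012 and 0 calls by edgeR, also 0 at an unadjusted p below 0.05. Of 6 astrocyte genes, Gfap (1.09, edgeR adjusted p = 0.00516) and Aldoc (0.60, edgeR adjusted p = 0.0137) rose, against 0.981% of all genes. The list had a median of 0.096, with 3 genes positive and 3 negative, among them Gja1 at -0.69 (edgeR adjusted p = 0.210). No gene was called among 7 oligodendrocyte lineage (median -0.12), 8 microglia (-0.16), 7 endothelial (-0.48), 5 meningeal (-0.42), 5 choroid plexus (-1.67), 4 blood (-0.98) or 3 diencephalic genes tested (-1.52), at edgeR's adjusted p. At an unadjusted p below 0.05, 3, 3, 4, 0, 4, 0 and 1 of them were counted, against 17.8% of all genes. DESeq2 was not counted for these lists.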
